A study of Mus musculus with 6 samples.

Results

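Abundant structural noncoding RNAs work as RNA rather than as templates for protein. They were followed in 4T1-tetL1(GLucAI) cells, a mouse breast carcinoma line of strain BALB/cfC3H given a LINE-1 (L1) reporter cassette under doxycycline control. The 9 RNAs named for this account were Rn45s, Malat1, Neat1, Rmrp, Rpph1, Rn7sk, Terc, Gas5 and Snhg1, chosen by symbol alone. Of these, 8 had a row among the 24421 genes of the count table. Rn7sk, the RNA of the 7SK particle, had no row under that symbol and was not analysed here, although the proteins that bind it were.

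All cells of the study's comparison carried the cassette. It holds a recoded mouse L1 with an antisense Gaussia luciferase readout, and firefly luciferase, behind a bidirectional tetracycline-responsive promoter, with the Tet-On 3G activator driven by the EF1α promoter. The labels call the cells transduced, and the methods describe a stable population made by plasmid transfection with PiggyBac integration. One group of 3 libraries came from untreated cells, which the treatment tag calls vehicle, and the other group of 3 from cells exposed to 400 ng/mL doxycycline for 48 h. RNA of the cassette itself, against which the labels could be tested, was not analysed here, so the second group is called the libraries labelled doxycycline. Total RNA was depleted of ribosomal RNA before library preparation. The libraries held 31653464 to 43631312 counts over genes, with overlapping totals between groups, and 15418 to 15685 genes had a count. The epithelial markers Krt8, Krt18 and Cdh1 lay between 301 and 669 CPM (reads per gene, brought to one library size) in every library. Epcam lay between 32.0 and 37.1 CPM and Krt14 between 1.95 and 3.50 CPM. Of the markers of other cells, Ptprc, Pecam1 and Col1a1 stayed at or below 0.601 CPM, Cd3e had 0 to 2 counts and Adgre1 had 0. The study's legend for these libraries calls them biological triplicates, while the labels do not say how the cultures were kept apart, so the p-values measure the spread between these libraries.

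Most of these RNAs belong to a particle or a nuclear body. Rn45s is the precursor that RNA polymerase I makes from the ribosomal DNA repeats and that the nucleolus cuts into mature ribosomal RNA with the help of small nucleolar RNAs (snoRNAs). Rmrp and Rpph1 are made by RNA polymerase III and form the related particles RNase MRP, which cuts the ribosomal precursor, and RNase P, which trims the leader of precursor tRNAs. Terc is the template RNA of telomerase. Malat1 gathers in nuclear speckles, where splicing factors are stored, and its neighbour Neat1 builds the paraspeckles. Gas5 and Snhg1 are host genes: their introns release snoRNAs, while the spliced remainder is mostly destroyed by nonsense-mediated decay.

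The short RNAs are shown first, because the replicates of Rmrp and Rpph1 lay farther apart than those of most genes. The transcripts are those of the GENCODE annotation of GRCm38 and all lie on the minus strand. Rmrp occupies chr4:43492788-43493058 and is 271 bases long, and the first 300 of 319 bases of Rpph1 lie at chr14:50807468-50807767. The capitals mark the longest run of letters that both RNAs share, 9 bases at positions 183 to 191 of Rmrp and 17 to 25 of Rpph1.
Rmrp: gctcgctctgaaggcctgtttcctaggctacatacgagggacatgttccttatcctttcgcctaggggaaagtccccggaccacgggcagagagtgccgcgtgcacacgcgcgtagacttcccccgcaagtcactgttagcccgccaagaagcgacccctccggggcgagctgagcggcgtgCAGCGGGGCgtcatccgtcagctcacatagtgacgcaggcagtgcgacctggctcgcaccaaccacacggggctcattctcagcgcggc
Rpph1: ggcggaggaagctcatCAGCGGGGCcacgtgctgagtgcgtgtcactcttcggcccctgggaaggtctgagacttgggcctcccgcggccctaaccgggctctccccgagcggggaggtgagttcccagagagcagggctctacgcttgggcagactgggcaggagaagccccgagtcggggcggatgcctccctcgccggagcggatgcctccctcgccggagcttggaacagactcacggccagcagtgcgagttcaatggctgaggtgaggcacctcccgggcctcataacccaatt

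The first 150 of 423 bases of Terc, chr3:96414710-96414859, hold the complement of the telomere repeat, in capitals at positions 29 to 35. This is the stretch that telomerase copies onto chromosome ends. The RefSeq gene spans chr3:96414437-96414833, 397 bases, so it starts within the printed bases and positions counted from it differ.
Terc: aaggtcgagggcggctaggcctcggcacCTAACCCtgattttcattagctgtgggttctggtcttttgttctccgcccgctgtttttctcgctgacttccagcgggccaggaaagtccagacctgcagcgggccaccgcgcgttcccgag

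Neat1 makes a short polyadenylated and a long transcript from nearly the same start. In the annotation the short one has 3004 bases in 2 exons and the long one 20771 bases in 1. Both exons of the short form lie within the sequence of the long form, so gene counts cannot separate the forms. The last 120 bases of the short form, chr19:5842307-5842426, are printed with the polyadenylation hexamer in capitals at positions 2985 to 2990.
Neat1: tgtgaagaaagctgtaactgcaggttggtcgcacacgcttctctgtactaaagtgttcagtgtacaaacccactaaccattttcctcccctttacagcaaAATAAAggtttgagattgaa

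To learn how much of a library these RNAs take, each one's share of all counts was computed. Together they took 10.09, 12.26 and 10.93% of the counts in untreated replicates 1 to 3. In replicates 1 to 3 labelled doxycycline the sum was 10.95, 13.13 and 11.72%. The groups overlapped, at 11.10% ± 1.09 and 11.94% ± 1.11 (SD, n = 3 each), with p = 0.4 in an exact two-sided permutation test. With 3 libraries against 3 the smallest p of this test is 0.1. Most of the sum was Rn45s. Without it the sum was 1.26, 1.22 and 1.29% in untreated libraries and 1.35, 1.02 and 1.22% in libraries labelled doxycycline (exact p = 0.7). The summed difference of 0.840 percentage points was 0.241 without replicate 2 labelled doxycycline, 0.340 without untreated replicate 1, 1.42 without untreated replicate 2 and 1.33 without replicate 1 labelled doxycycline. Without Rn45s the difference was -0.0604 percentage points, 0.0276 without replicate 2 labelled doxycycline and -0.138 without replicate 1 of that group.

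Rn45s was the highest row of every library. Its share was 8.83, 11.04 and 9.64% in untreated replicates 1 to 3, and 9.60, 12.11 and 10.51% in replicates 1 to 3 labelled doxycycline. In both groups replicate 2 was the highest, and the groups overlapped (9.84% ± 1.11 against 10.74% ± 1.27, SD, n = 3 each, exact permutation p = 0.5). The difference of 0.901 percentage points was 0.213 without replicate 2 labelled doxycycline and 0.398 without untreated replicate 1, but 1.5 without untreated replicate 2 and 1.47 without replicate 1 labelled doxycycline. Across the whole table same-numbered libraries did not deviate together, but the share of Rn45s had the same order by replicate number in both groups. Whether same-numbered libraries were prepared together is not given in the sources used here. Reads of mature ribosomal RNA that escaped depletion and reads of the precursor fall in the same row and cannot be told apart. Ribosomal DNA also has many near-identical copies, and how reads with several matches were counted is not given in the sources used here, so the level of Rn45s is uncertain.

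After Rn45s, the highest were Rmrp, Malat1 and Rpph1. Malat1 ranked 5 to 7 among all genes in a library, Rmrp 5 to 9 and Rpph1 9 to 12. Their shares were 0.372 to 0.445% for Malat1, 0.273 to 0.457% for Rmrp and 0.265 to 0.358% for Rpph1. Neat1 ranked 95 to 305 and Gas5 272 to 387. Snhg1 ranked 1752 to 1938. Terc was not among the abundant rows, at rank 6541 to 6854 and 722 to 982 counts. Its lowest share, in replicate 3 labelled doxycycline, was 0.00217% with a 95% exact Clopper-Pearson interval of 0.00202 to 0.00232%, which covers counting error only. The groups overlapped for all 8 shares. The exact permutation test cannot give a p below 0.1 here, so no share could pass a threshold of 0.05. It therefore cannot decide whether a share differed between groups. Neat1 and Terc had the smallest exact permutation p of 0.2 (0.8 adjusted over the members for both).

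Levels of different RNAs were compared per kilobase of transcript, as untreated means with SD over 3 libraries. Rmrp stood at 14954 ± 759 CPM per kb and Rpph1 at 10170 ± 1030. Both are short, so the order by counts and by length differ: Malat1, with counts like those of Rmrp, stood at 598 ± 40.8 CPM per kb over its 6983 bases. Snhg1 followed at 198 ± 3.29 and Gas5 at 147 ± 3.02 CPM per kb. The length used for Gas5, 2556 bases, is of a transcript annotated as retaining an intron. That for Snhg1, 605 bases, is of a transcript not so annotated. Terc, at 55.2 ± 2.39, and Neat1, at 45.0 ± 10.8 CPM per kb, were not separated, since Neat1 spanned 34.3 to 66.9 over the 6 libraries and Terc 51.4 to 57.6. Rmrp and Rpph1 overlapped over all 6 libraries through Rmrp of 10181 CPM per kb in replicate 2 labelled doxycycline, but their ranges were apart within each group. The order of Gas5 and Snhg1 depends on the transcripts counted: with the mean length of all annotated transcripts, Gas5 stood at 506 and Snhg1 at 148 CPM per kb, Malat1 at 1924 and Neat1 at 83.8, above Terc. With the longest transcript Neat1 stood at 25.7 CPM per kb (19.6 to 38.3 over the libraries), below the range of Terc. Recovery of short and long RNAs by the library preparation was not measured.

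**Figure D1:**
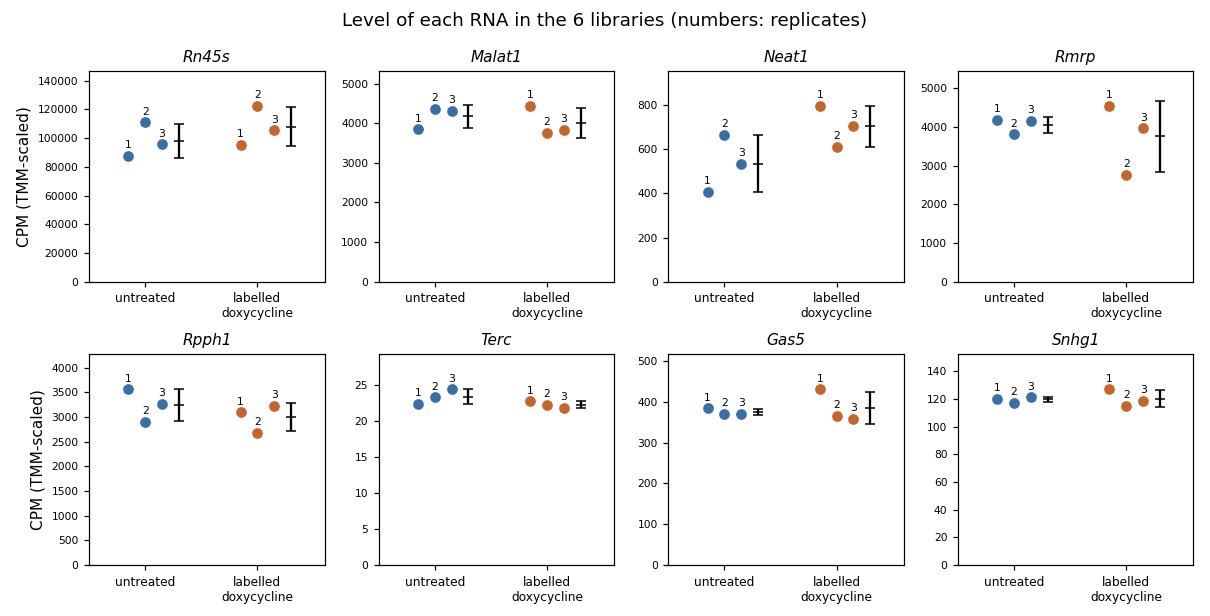
Level of each RNA in CPM after TMM scaling (vertical axes start at 0) in 3 untreated libraries (blue) and 3 libraries labelled doxycycline (orange), with replicate numbers and, beside each group, mean ± SD. The groups overlap for all 8 RNAs, and replicate 2 labelled doxycycline is lowest for Rmrp.

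To determine whether these RNAs differed between the groups, both were compared in one edgeR quasi-likelihood fit over 13084 genes. No group had doxycycline without the cassette, so effects of the drug, of firefly luciferase and of L1 cannot be told apart. Differences are given on the log2 scale, libraries labelled doxycycline minus untreated. None of the 8 RNAs passed an adjusted p of 0.05 (Benjamini-Hochberg over all genes), and none had groups that did not overlap. Over all genes tested, 3.09% passed, 0.925% higher and 2.16% lower in libraries labelled doxycycline, and 16.2% had an unadjusted p under 0.05. Groups did not overlap for 21.3% of all genes. None of the 8 RNAs had an unadjusted p under 0.05. In bulk RNA, fewer cells making an RNA and less of it per cell cannot be told apart.

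Neat1 had the largest log2 difference among the 8. It was at 407, 664 and 533 CPM in untreated replicates 1 to 3 and at 796, 610 and 706 CPM in replicates 1 to 3 labelled doxycycline. Untreated replicate 2 lay above replicate 2 labelled doxycycline, so the groups overlapped, and untreated replicate 1 was the lowest of all. The log2 difference was 0.40 (SE 0.223, adjusted p = 0.488 by edgeR), with a 95% interval of the fold from 0.866 to 2.0, which reaches beyond any other upper bound among the 8. Over the alternatives tried the log2 difference ran from 0.23 to 0.58 and the adjusted p from 0.144 to 0.718.

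Malat1, which lies 22036 bases from Neat1, was at 3847, 4363 and 4315 CPM in untreated libraries and at 4435, 3760 and 3830 CPM in libraries labelled doxycycline. The highest and the lowest values came from the same group. Its log2 difference was -0.06 (SE 0.0591, adjusted p = 0.682 by edgeR), with the fold between 0.881 and 1.05. The ratio of Malat1 to Neat1 counts, chosen after the values were seen, was 9.44, 6.57 and 8.10 in untreated libraries and 5.57, 6.17 and 5.42 in the libraries labelled doxycycline. These ratios did not overlap, at 8.04 ± 1.43 and 5.72 ± 0.394 (SD, n = 3 each), and an exact permutation test gave p = 0.1, the smallest it can give here. Frmd8, which lies 5494 bases from Neat1, was at a log2 difference of -0.03 (adjusted p = 0.876 by edgeR).

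Rmrp was at 4185, 3815 and 4157 CPM in untreated libraries and at 4548, 2759 and 3973 CPM in libraries labelled doxycycline. Replicates 1 and 2 of the second group held the highest and the lowest level of all 6. The log2 difference was -0.11 (SE 0.208, adjusted p = 0.862 by edgeR), with the fold between 0.628 and 1.37. Without replicate 2 labelled doxycycline the log2 difference was 0.07, so this library sets the sign. Rpph1 was at 3561, 2905 and 3266 CPM in untreated libraries and at 3093, 2674 and 3220 CPM in those labelled doxycycline. Its log2 difference was -0.12 (SE 0.0799, adjusted p = 0.529), with the fold between 0.817 and 1.04.

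The remaining RNAs had narrower intervals than Neat1 and Rmrp. Rn45s had a log2 difference of 0.14 (SE 0.118, adjusted p = 0.647 by edgeR) and a fold between 0.902 and 1.34. With 1 library left out its log2 difference ran from 0.035 to 0.23. Terc was at 22.4, 23.3 and 24.4 CPM in untreated libraries and at 22.7, 22.2 and 21.8 CPM in those labelled doxycycline. Its log2 difference was -0.07 (SE 0.0757, adjusted p = 0.707), and the fold lay between 0.854 and 1.06. Gas5 was at 384, 371 and 370 CPM and then at 431, 366 and 359 CPM, with a single high library, replicate 1 labelled doxycycline. Its log2 difference was 0.04 (SE 0.0564, adjusted p = 0.796), with the fold between 0.947 and 1.11, and -0.05 without that library. Snhg1 had a spread close to that of Terc, at 120, 117 and 121 CPM and then at 127, 115 and 119 CPM. Its log2 difference of 0.01 (SE 0.0493, adjusted p = 0.964) bounded the fold between 0.936 and 1.08. Its sign turned under library-size scaling and without either untreated replicate 2 or replicate 1 labelled doxycycline.

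**Figure D2:**
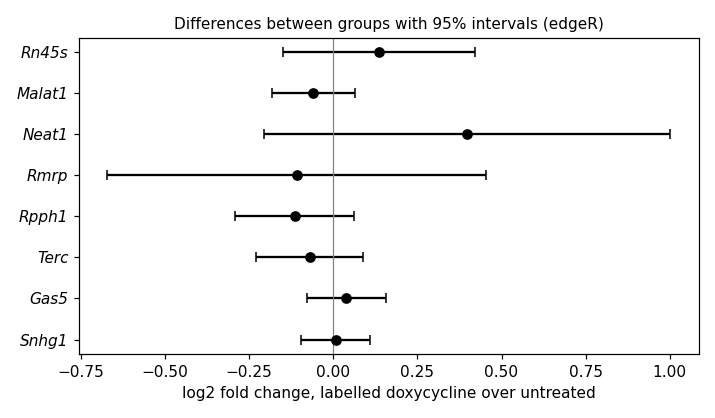
Log2 difference of each RNA, libraries labelled doxycycline over untreated, as points with 95% intervals from the edgeR fit. Every interval crosses 0, and the widest belong to Neat1 and Rmrp.

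The 8 RNAs differed from one another in how far replicates lay apart. The spread was measured as the pooled within-group SD of log2 CPM and set beside that of the 7120 genes with a mean of at least 20 CPM, whose median was 0.0690. Neat1, at 0.284, and Rmrp, at 0.269, both lay at the 99.9 percentile of these genes. Rn45s, at 0.176, lay at the 98.9 percentile and Rpph1, at 0.144, at the 96.2 percentile. Malat1 (0.116, percentile 89.1) and Gas5 (0.104, percentile 82.9) were nearer the bulk. Snhg1 (0.0544, percentile 32.3) and Terc (0.0491, percentile 25.5) were below the median, although Terc had the fewest reads of the 8. The spread came from different groups: Neat1 had a coefficient of variation of 24.0% in untreated libraries and 13.2% in those labelled doxycycline, whereas Rmrp had 5.08% and 24.3%.

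**Figure D3:**
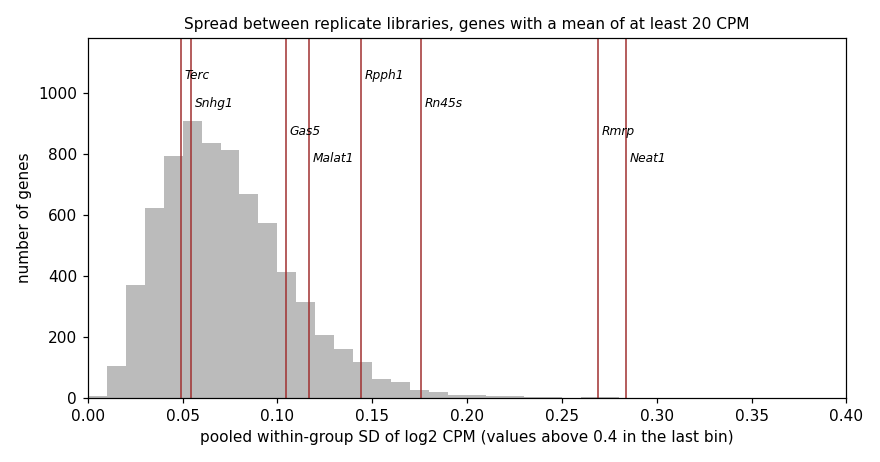
Number of genes (vertical axis) by pooled within-group SD of log2 CPM (horizontal axis) for 7120 genes with a mean of at least 20 CPM, with red lines at the 8 RNAs. Terc and Snhg1 sit within the bulk of genes, and Rmrp and Neat1 sit in the far right tail.

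Next it was examined whether these RNAs moved together from library to library. Among the 28 pairs of shares over the 6 libraries, 4 had an exact permutation p under 0.05 for Pearson's r and none did after adjustment over the pairs (smallest adjusted p 0.136). The 4 joined Rn45s with Rpph1 and with Rmrp, and Snhg1 with Rmrp and with Gas5. Rn45s and Rpph1 had r = -0.94 (exact permutation p = 0.00972) and rho = -0.83 (p = 0.0583), with r = -0.70 without the 2 libraries farthest from the median of Rn45s. Rn45s and Rmrp had r = -0.88 (exact permutation p = 0.0125) and rho = -0.94 (p = 0.0167), with r = -0.90 without 2 libraries. The adjusted p was 0.136 for r in both pairs, and 0.272 and 0.233 for rho. These values pool both groups, since the 3 libraries of 1 group are too few for a correlation. Shares of one total depend on each other. On totals without Rn45s the correlations with the Rn45s share were -0.92 for Rpph1 and -0.86 for Rmrp, and Rmrp still ranged 1.63-fold and Neat1 1.97-fold. Rmrp and Snhg1 had r = 0.89 (exact permutation p = 0.0181, adjusted p = 0.136) and rho = 0.94 (p = 0.0167, adjusted p = 0.233), with r = 0.97 without 2 libraries. Gas5 and Snhg1, the host genes, had r = 0.87 (exact permutation p = 0.0194) and rho = 0.77 (p = 0.103), with r = 0.55 without 2 libraries. That last relation thus rested largely on the most distant libraries.

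Other short RNAs in the table followed the same order as Rmrp, a comparison made after the values were seen. The 119 snoRNA and scaRNA rows, short RNAs that guide modification of ribosomal and spliceosomal RNA, summed to 363, 342 and 358 CPM in untreated libraries. In libraries labelled doxycycline they summed to 414, 311 and 353 CPM. The order of the 6 libraries was the same as that of Rmrp (rho = 1.0, exact permutation p = 0.00278), with r = 0.90 (exact permutation p = 0.0319) and r = 0.98 without 2 libraries. Over the 16 relations of this kind the adjusted p was 0.0222 for rho and 0.0963 for r. Snord22 is among the 119 summed rows, so its relations are not separate from those of the sum. This snoRNA, from the introns of Snhg1, was at 30.2, 24.7 and 28.6 CPM and then at 34.8, 17.5 and 25.2 CPM. It too had the order of Rmrp (rho = 1.0, exact permutation p = 0.00278, adjusted p = 0.0222), with r = 0.96 (exact permutation p = 0.00139, adjusted p = 0.0222) and r = 0.94 without 2 libraries. Replicate 1 labelled doxycycline was highest and replicate 2 lowest for Rmrp, Snord22 and the summed rows alike. In both groups each of these ran from replicate 1 through 3 to 2, highest to lowest, and Rn45s ran in reverse. The exact permutation, here and for the pairs of shares above, treats the 6 libraries as freely exchangeable. If same-numbered libraries share a preparation, these p-values are too small. The sum was also correlated with Snhg1, with r = 0.98 (exact permutation p = 0.00278, adjusted p = 0.0222) and rho = 0.94 (p = 0.0167, adjusted p = 0.0444), and r = 0.89 without 2 libraries. With Rn45s it had r = -0.73 (exact permutation p = 0.0958, adjusted p = 0.20) and rho = -0.94 (p = 0.0167, adjusted p = 0.0444). With Gas5 it had r = 0.86 (exact permutation p = 0.0361, adjusted p = 0.0963) and rho = 0.71 (p = 0.136), and r = 0.46 without 2 libraries. Relations with Malat1 (r = 0.59, rho = 0.60), Terc (r = 0.13, rho = 0.26), Neat1 (r = 0.35, rho = 0.086) and Rpph1 (r = 0.48, rho = 0.66) did not pass the exact permutation test, with adjusted p of 0.345, 0.865, 0.614 and 0.435 for r. Without 2 libraries r was -0.52, -0.032, -0.79 and 0.96 in the same order, so the values for Malat1, Neat1 and Rpph1 rest on which libraries are included. Whether recovery of short RNA had a part in these differences was not tested.

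**Figure D4:**
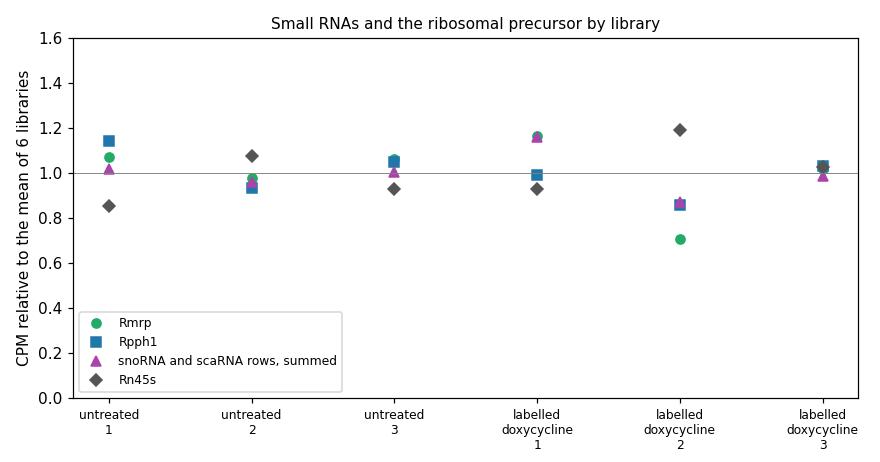
CPM of Rmrp, Rpph1, the 119 summed snoRNA and scaRNA rows, and Rn45s in each of the 6 libraries, divided by that RNA's mean over the libraries (grey line at 1). In replicate 2 labelled doxycycline Rmrp, Rpph1 and the summed rows lie at their lowest and Rn45s at its highest.

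Gas5 and Snhg1 are known for starting with a pyrimidine tract, like many transcripts of the translation machinery. The 50 bases before and after each annotated start (RefSeq, GRCm38.p6, plus strand) are shown to let the tracts of these host genes be compared. The capitals mark the longest run of C or T on the gene's strand between 15 bases before and 25 after the start. For Gas5 this is the second of its starts, at chr1:161035116-161035215, with a run of 6, while the longest run at its first start was 3 and is not shown. For Snhg1 it is chr19:8723437-8723536, with a run of 9. Relative to the annotated start the run shown for Gas5 begins at -1 and that of Snhg1 at 4, so the Snhg1 run does not begin at the start itself. Of 32851 promoters, 36.3% held a run of at least 6 in this window and 10.1% a run of at least 9.
Gas5: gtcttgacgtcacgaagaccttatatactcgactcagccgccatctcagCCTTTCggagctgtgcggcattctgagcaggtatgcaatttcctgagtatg
Snhg1: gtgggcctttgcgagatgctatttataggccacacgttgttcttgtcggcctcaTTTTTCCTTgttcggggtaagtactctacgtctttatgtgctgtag

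The neighbours of these genes were compared in the same fit. Gas5 overlaps Zbtb37 (log2 difference 0.10, adjusted p = 0.546), and Snord47 lies inside it with 166 to 212 counts (-0.13, adjusted p = 0.739). Its next neighbours, Serpinc1 (-0.12, adjusted p = 0.938) and Cenpl (-0.07, adjusted p = 0.709), did not pass either. Whether the counting used the strand is not given in the sources used here, so reads of overlapping genes on opposite strands may be shared. Snhg1 overlaps Snord22 (-0.12, SE 0.266, adjusted p = 0.883) and lies 118 bases from Slc3a2, which encodes an amino acid transporter subunit (0.11, adjusted p = 0.284), and 9469 bases from Wdr74 (0.21, adjusted p = 0.11). Rmrp lies 281 bases from Ccdc107 (0.11, adjusted p = 0.709) and 44710 from Tesk1 (0.07, adjusted p = 0.771). Rpph1 lies 126 bases from Parp2 (0.06, adjusted p = 0.699) and 11719 from Ccnb1ip1 (0.09, adjusted p = 0.675). The nearest gene on one side of Terc, Bola1, was at a log2 difference of 0.18 (adjusted p = 0.512). The gene on the other side, Txnip, an inhibitor of thioredoxin and of glucose uptake, lies 143124 bases away and passed the test. Its counts were 1124, 843 and 1067 in untreated replicates and 450, 597 and 690 in replicates labelled doxycycline, and it fell by 0.76 on the log2 scale (SE 0.0934, adjusted p = 3.17e-05 by edgeR).

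The proteins that make, process or bind these RNAs were then examined. In the same edgeR fit, 6 of the 44 pre-rRNA processing genes rose and none fell in libraries labelled doxycycline, beside 0.925% higher over all genes. Of the 44, 43 had a log2 difference above 0, beside 50.8% of all genes, with a median of 0.10 beside 0.002 over all genes. Groups did not overlap for 18 of them, beside 21.3% of all genes. Utp20, a component of the small-subunit processome, rose from 240 ± 4.00 to 285 ± 7.42 CPM (SD, n = 3 each), by 0.25 on the log2 scale (SE 0.0438, adjusted p = 0.00167 by edgeR). Rrp9, which binds the U3 snoRNA, rose from 44.6 ± 0.511 to 55.6 ± 2.22 CPM (0.32, SE 0.0583, adjusted p = 0.00249 by edgeR). Nop56, a core protein of the methylation-guiding snoRNA particles, rose from 290 ± 8.89 to 337 ± 13.6 CPM (0.22, SE 0.0459, adjusted p = 0.00851 by edgeR). Ddx18, Rrp12 and Utp14a were the other 3. The count of 6 was 2 without untreated replicate 2 or untreated replicate 3, 3 without replicate 3 labelled doxycycline and 14 without replicate 2 labelled doxycycline. The call of Nop56 was lost without untreated replicate 2 or 3.

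None of the 20 genes of RNA polymerase I transcription passed the test, beside 3.09% of all genes. The list is too short for a count of 0 to be read against that share. Of them 15 were above 0, beside 50.8% of all genes, with a median of 0.07. The one farthest from 0 was the termination factor Ttf1 (0.22, adjusted p = 0.243 by edgeR). Of 30 genes of RNA polymerase III transcription, which makes Rmrp and Rpph1, 23 were above 0 (median 0.07) and 1 rose, beside 50.8% above 0 and 0.925% higher over all genes. A count of 1 is too small to be read against that background. The gene was the polymerase subunit gene Polr3e, which went from 22.5 ± 1.18 to 27.2 ± 1.07 CPM (SD, n = 3 each, log2 difference 0.27, SE 0.0749, adjusted p = 0.0481 by edgeR). Its call was lost under library-size scaling and without any single library but replicate 1 labelled doxycycline, where it held. The subunit isoform gene Polr3gl was farthest from 0, at -0.38 (adjusted p = 0.230). Some subunit genes are in the lists of both polymerases.

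Of 10 proteins of RNase P and RNase MRP, 5 were above 0 (median 0.01) and 1 rose, beside 50.8% and 0.925% over all genes. A single call is too few to be read against that background. Pop1, the largest shared protein of both particles, rose from 139 ± 1.25 to 160 ± 7.81 CPM (SD, n = 3 each, log2 difference 0.20, SE 0.0475, adjusted p = 0.0177 by edgeR). Its call was lost without untreated replicate 1, 2 or 3 and without replicate 3 labelled doxycycline. The RNAs themselves, Rmrp and Rpph1, had log2 differences of -0.11 and -0.12 that did not pass. Rpp25l was farthest from 0, at 0.26 (adjusted p = 0.258).

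In the other partner lists no gene passed, beside 3.09% of all genes, and 50.8% of all genes were above 0. Lists this short are too small for a count of 0 to be read against that background. Among the 15 telomerase genes 9 were above 0 (median 0.02), with Nhp2, which binds Terc, farthest from 0 at 0.17 (adjusted p = 0.0779 by edgeR). Some of these genes, Nhp2 among them, are also in the pre-rRNA processing list, so these lists are not separate. Of the 22 paraspeckle and nuclear speckle proteins 11 were above 0 (median -0.001), and Hnrnph3 was farthest, at -0.33 (adjusted p = 0.209). Of 15 genes of nonsense-mediated decay, the route that limits Gas5 and Snhg1, 12 were above 0 (median 0.05), and the nuclease gene Smg6 was at 0.18 (adjusted p = 0.148). Of 8 genes of the 7SK particle and of P-TEFb, the kinase it restrains, 3 were above 0 (median -0.03). Hexim2, an inhibitor within that particle, was at -0.55 (adjusted p = 0.310) from levels of 1.07 to 2.76 CPM.

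**Figure D5:**
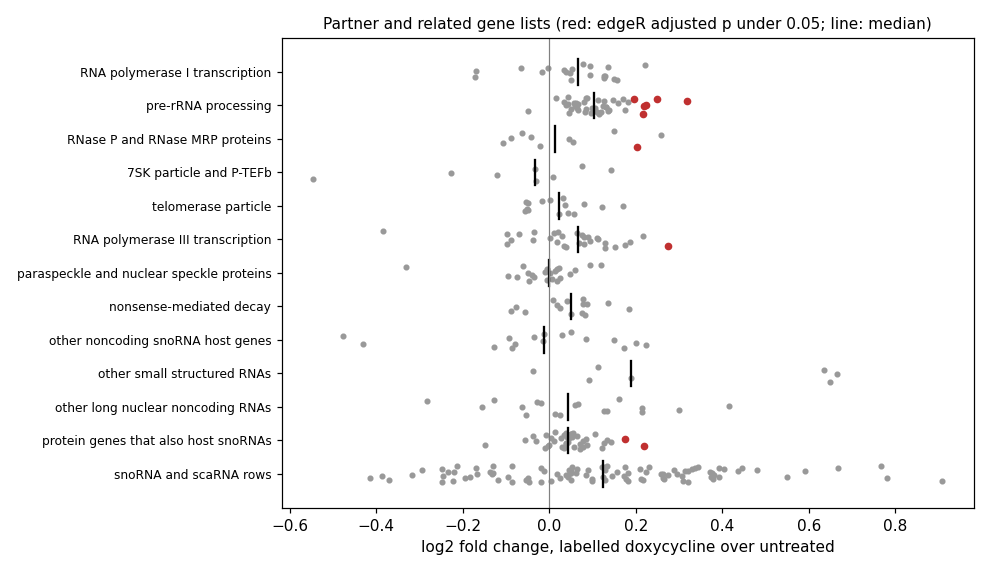
Log2 difference, libraries labelled doxycycline over untreated (horizontal axis), of each tested gene in 8 lists of partners and 5 lists of related genes, with black bars at list medians and red points for an edgeR adjusted p under 0.05. In the pre-rRNA processing list 43 of 44 points lie right of 0 and 6 are red.

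RNAs of the same kinds were counted last, and no noncoding one passed the test, beside 3.09% of all genes in either direction. Some of these rows, such as Scarna8 and Rprl2 below, had few reads, so a missing call says little about them. Of 16 other noncoding snoRNA host genes, 7 were above 0 (median -0.01), and Snhg14 was farthest, at -0.48 (adjusted p = 0.402 by edgeR). Of 40 protein genes that also host snoRNAs 32 were above 0 (median 0.04) and 2 rose, beside 50.8% above 0 and 0.925% higher over all genes. These were Nop56, given above, and the ribosomal protein gene Rpl3, from 422 ± 12.8 to 477 ± 4.87 CPM (SD, n = 3 each, log2 difference 0.18, SE 0.0430, adjusted p = 0.0245 by edgeR). The call of Rpl3 was lost without any 1 of the untreated libraries and without replicate 3 labelled doxycycline. Among 18 other long nuclear noncoding RNAs 11 were above 0 (median 0.04). The one farthest from 0 was Jpx, an RNA of the X inactivation centre, at 9.28 ± 0.319 and 12.4 ± 2.42 CPM (0.42, adjusted p = 0.0800). Of 97 tested snoRNA and scaRNA rows 67 were above 0 (median 0.12) and 3 had an unadjusted p under 0.05, beside 16.2% of all genes. The farthest, Scarna8, was at 0.224 and 0.415 CPM (0.91, adjusted p = 0.40). Of 7 other small structured RNAs 6 were above 0 (median 0.19), led by the RNase P-like Rprl2 at 0.397 and 0.638 CPM (0.66, adjusted p = 0.452).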

How the data were processed

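RNA from 6 libraries was measured by sequencing after ribosomal RNA depletion with a kit that keeps strand (dUTP). Per the study's methods and the submitters' processing notes, the authors converted base calls with bcl2fastq 2.20, used STAR for alignment to mm10/GRCm38, and summarised reads by gene in featureCounts (Subread 1.6.2). The authors deposited raw counts with replicates kept apart. Strand and multi-mapping settings are not given in the sources used here.

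Groups came from the sample titles, and 0 columns were left unmatched. No replicate pair agreed within sampling noise (chi-square per degree of freedom 6.37 to 23.3). At these depths 3 counts are 0.0688 to 0.0948 CPM. CPM uses TMM-scaled totals. Groups were compared in edgeR 4.0.16 by its quasi-likelihood F-test (R 4.3.3, robust, filterByExpr, 13084 genes), with Benjamini-Hochberg adjustment at 0.05 and no covariate. Log2 CPM has a prior count of 2. Shares were tested by exact two-sided permutation. The study used DESeq2; DESeq2 1.42.0 was an alternative. The fit was tested on simulated data.

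The RNAs, the gene lists and the tests were chosen with earlier results of these data known. Named genes are the members, from each list up to 3 genes past the threshold with the smallest p and the one farthest from 0, neighbours and overlapping genes, and, for 5 members, the 3 genes most alike. Ddx18, Rrp12 and Utp14a were named after their values were seen. Lengths are means over GENCODE transcripts paired with a RefSeq accession, in place of the planned RefSeq annotation. Rn45s is in neither table, and no length or position is given. Neighbours are from RefSeq, GRCm38.p6, and some are not reported here. Alternatives are in the closing section.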

Additional observations from a re-analysis of the deposited data

How the results depend on the processing

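Under 12 alternatives, 11 for Rn45s (other scalings, no filter, the replicate number as a block, DESeq2, each library left out), none of the 8 RNAs was called lower, and 1 was called higher under 1 setting: Rn45s with the replicate block (log2 fold change 0.14, edgeR adjusted p = 0.0221). Over the whole table same-numbered libraries did not deviate together (correlations -0.0399, -0.00449 and 0.0176), and 1 of 6 libraries correlated best with its own number. These values cannot decide whether same-numbered libraries were prepared together. Rn45s and Rmrp each kept the same order by replicate number in both groups. Over all genes the block gave 118 higher and 300 lower, and Polr3e lost its call (0.27, adjusted p = 0.05003). The sign turned for Rmrp without doxycycline replicate 2 (0.072; range with 1 library left out -0.27 to 0.072), for Gas5 without doxycycline replicate 1 (-0.049; range -0.049 to 0.087), and for Snhg1 with library size only (-0.0023), without untreated replicate 2 (-0.0050) and without doxycycline replicate 1 (-0.034; range -0.034 to 0.038). Leaving out 1 library, calls among partner genes ranged from 2 to 19 higher (8 with all libraries) and 0 to 2 lower (0). Pre-rRNA processing calls ranged from 2 to 14 (6), and related-gene calls from 0 to 6 higher (2) and 0 to 3 lower (0). Without a filter 1 partner gene was called lower and 4 related genes higher; DESeq2 called 5 related genes higher. Whole-table counts were 121 higher and 283 lower, 210 and 439 without a filter, 185 and 358 by DESeq2, and 44 to 269 and 116 to 487 with 1 library left out. The cause of these shifts was not tested, beyond the fewer samples or other genes tested. Differences in shares ranged with 1 library left out from 0.241 to 1.42 percentage points for the sum (0.840), 0.213 to 1.5 for Rn45s (0.901) and -0.138 to 0.0276 for the sum without Rn45s (-0.0604), whose sign turned without doxycycline replicate 2. Levels per kilobase of untreated libraries moved with the transcripts counted: Neat1 to 25.7 with the longest and, with all annotated transcripts (chosen after seeing the data), Malat1 to 1924, Gas5 to 506, Snhg1 to 148 and Neat1 to 83.8 CPM per kb. For Neat1 and Rmrp the spread between libraries, not counting error, limits what could be called.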

Other observations

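The genes whose log2 CPM ran closest to each RNA over the 6 libraries were taken from 9878 tested genes with a mean of at least 5 CPM. With 6 points many genes reach a high Pearson r, so these are descriptions only. For Rn45s they were Brpf1 (r = 0.999), Adamtsl3 (0.995) and Pcnxl3 (0.994), among 74 genes with r over 0.9. For Malat1 they were Cnot2 (r = 0.988), Pnrc2 (0.987) and Clns1a (0.982), among 72. Neat1 ran closest to Slain1 (r = 0.994), Rint1 (0.988) and Clasp2 (0.981), among 61. Gas5 ran closest to Dbi (r = 0.987), Taf15 (0.984) and Aifm1 (0.972), among 52, and Snhg1 to Dnajc19 (r = 0.985), Dscc1 (0.979) and Rcn1 (0.979), among 117.

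The ratio of Rmrp to Rpph1 counts, chosen after the values were seen, was 1.18, 1.31 and 1.27 in untreated replicates 1 to 3 and 1.47, 1.03 and 1.23 in replicates 1 to 3 labelled doxycycline (exact permutation p = 1.0). The ratio of Gas5 to Snhg1 counts stayed between 3.03 and 3.40 over the 6 libraries.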
